A study of Mus musculus with 55 samples.

Results

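The genes described here form the response to amino acid shortage that is run by the transcription factor Atf4, followed in the dorsal hippocampus of Cnih3 KO and WT mice. They are 44 of the 55487 Ensembl genes in the count table and were taken by gene symbol from a list of names. They comprise 7 transcription factors, 8 stress effectors, 6 amino acid enzymes, 6 serine and one-carbon genes, 7 amino acid transporters, 9 tRNA synthetases and the tRNA export factor Xpot. Of the 44 members, 43 were among the 16168 genes that passed the filter on low counts (over 1 CPM, the count scaled to the size of its library, in 10 or more of the mice). Trib3 did not pass and is described by its counts.

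Cells that run short of an amino acid, or whose protein folding is disturbed, phosphorylate the initiation factor eIF2, which slows translation in general while the Atf4 mRNA is translated more. Atf4 protein then binds DNA together with partners of the C/EBP family and raises genes that make, import and charge amino acids, together with genes that limit the response or promote cell death when the stress lasts. This program is often called the integrated stress response, and in the hippocampus it is known for its influence on the translation needed for long-lasting synaptic plasticity. RNA counts measure the Atf4 transcript and those of its target genes, not the Atf4 protein.

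Each library was made from the dorsal hippocampus of 1 mouse, 55 mice in all, and the 10 groups were WT and KO females in metestrus, diestrus, proestrus and estrus, and WT and KO males. The KO mice lack exon 4 of Cnih3, which encodes an auxiliary subunit of AMPA-type glutamate receptors. The line was started from BL/6N mice and backcrossed to C57BL/6J, and all 28 KO mice came from parents that carried the deletion (CNIH3 x B6). Of the 27 WT mice, 11 came from CNIH3 x B6 parents and 16 from B6 x B6 parents. Group sizes ran from 4 (WT metestrus, KO proestrus) to 7 (WT estrus, KO males), and ages from 10.86 to 23.71 weeks. Mice under 14 weeks were unevenly spread, with 3 of 6 in WT diestrus, 4 of 6 in KO diestrus and 3 of 4 in KO proestrus, so age and stage overlap in part. Library totals ran from 25881295 to 63547098 counts, with a median of 53384170. At the gene level Cnih3 was at 4.43 to 5.97 log2 CPM in WT mice (median 5.30) and at 4.43 to 5.58 in KO mice (median 4.96), and a gene count does not show the loss of 1 exon. Markers of hippocampal neurons were present in every library, with the summed CPM of 5 pyramidal cell markers at 898 to 1287 in WT and 876 to 1224 in KO mice.

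Atf4 and C/EBP proteins bind together to a composite element whose core can be written TGATGNAA. These letters were searched on both strands in RefSeq promoter windows (GRCm38.p6, 250 bases before to 50 bases after each gene start), which were found for 37 members. They occurred in the windows of 14 of these members (37.8%) and of 1219 of all 27025 genes (4.51%). The members were listed as genes of the Atf4 response, so this contrast is no separate support for their link to Atf4. By class, 5 of 7 tRNA synthetases with a window held them, against 3 of 7 stress effectors, 2 of 4 transporters, 2 of 5 amino acid enzymes, 2 of 7 transcription factors and 0 of 6 serine and one-carbon genes. The matches of the 6 members that were called lower in KO mice (see the comparisons that follow) and of Atf3 and Slc7a11, which were not called, are printed here 5′ to 3′ on the strand that reads TGATGNAA, with the match in capitals, to show the letters these promoters share. A match describes the sequence and is not evidence of binding.
Chac1 (chr2:119351039-119351066, minus strand): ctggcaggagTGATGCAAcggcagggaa
Asns (chr6:7693215-7693242, minus strand): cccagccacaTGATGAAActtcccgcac
Nupr1 (chr7:126625563-126625590, plus strand): aagccctgtcTGATGCAAtctggccctt
Pycr1 (chr11:120643834-120643861, minus strand): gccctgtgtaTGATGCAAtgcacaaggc
Gars (chr6:55037961-55037988, minus strand): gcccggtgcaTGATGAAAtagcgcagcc
Yars (chr4:129189896-129189923, plus strand): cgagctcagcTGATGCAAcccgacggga
Atf3 (chr1:191183426-191183453, plus strand): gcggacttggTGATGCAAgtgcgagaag
Slc7a11 (chr3:50443662-50443689, minus strand): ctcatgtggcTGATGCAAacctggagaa
Slc7a11 held a further match 47 bases before its start, which overlaps in its flanks and is not printed. The Chac1 match began 193 bases before the gene start, that of Pycr1 103 bases before it and that of Asns 23 bases before it. Among members called lower in KO mice and with a window, 6 of 12 held the letters, and among tested members that were not called, 7 of 24 did. The windows of Atf4, Atf5, Mthfd2, Psph, Cebpg and Slc7a1, all called, did not hold them, which says only that these letters are not in those windows.

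The first question was whether KO mice differ from WT mice in these genes when the 5 groups of each genotype are averaged. Atf4 was 27.1% lower in KO mice, and 14 further members were lower as well, across all 6 functional classes. They were the transcription factors Atf5, Cebpg and Nupr1, the stress effectors Chac1 and Eif4ebp1, the enzymes Asns and Pycr1, the serine and one-carbon genes Psph and Mthfd2, the transporters Slc7a1 and Slc7a3, and the tRNA synthetases Gars, Nars and Yars. No member was called higher. In this comparison, in which each genotype is the mean of its 5 group means, 15 of 43 members (34.9%) were called lower, meaning a false discovery rate (FDR) under 0.05 over all genes tested, against 1.9% of all genes. At an unadjusted p under 0.05, 18 members were lower and 0 higher, against 9.37% of all genes that were lower at that p. The median log2 fold change of the members was -0.07, and that of all genes was -0.003. The members were chosen with earlier results of these data known, so these contrasts with all genes are no separate support for a shared change. The plot of all members shows all 15 called members below 0 and most others near 0.

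**Figure D1:**
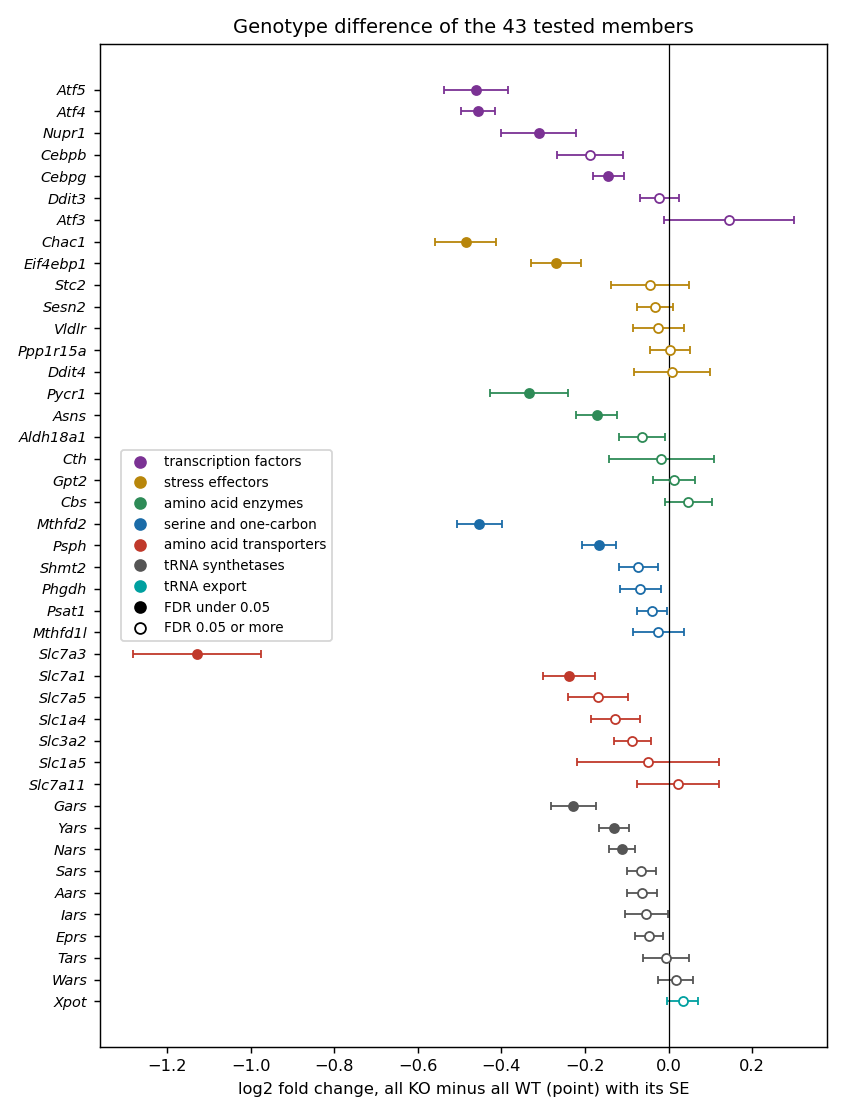
Log2 fold change of each tested member in all KO against all WT mice (x axis; point, with its SE as the bar), with genes on the y axis grouped by class and colour; filled points have an FDR under 0.05. All 15 filled points lie below 0, from -1.13 (Slc7a3) to -0.11 (Nars).

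Other tools called fewer of the 15, and all calls were lower in KO mice: 7 with edgeR's quasi-likelihood test, 7 with voom without sample quality weights and 8 with DESeq2. These were 16.3%, 16.3% and 18.6% of the members, against 0.946%, 0.928% and 1.16% of all genes called in either direction. The main fit called 3.4% of all genes in either direction. Atf4, Atf5, Chac1, Eif4ebp1, Mthfd2, Slc7a3 and Gars were called by each of these tools. Breeding differed between the genotypes, and with only the 39 mice of CNIH3 x B6 parents 9 of 43 members (20.9%) were called, all lower, of which 8 were among the 15. In that fit 14.6% of all genes were called in either direction. Without the KO proestrus mouse 12_4, 9 members were called.

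Atf4 (chr15:80255184-80257541, GRCm38, plus strand) had a lower mean in KO than in WT mice in every group, and was called in metestrus, proestrus and estrus. Across all mice its level was 6.62 to 7.58 log2 CPM in WT mice (median 7.19, n = 27) and 6.42 to 6.98 in KO mice (median 6.72, n = 28). The log2 fold change of all KO against all WT was -0.46 ± 0.04 (SE; FDR = 9.92e-12). It kept its call under every alternative run, at -0.49 to -0.44 over the fits that left out each mouse in turn and at -0.44 within CNIH3 x B6 mice (FDR = 0.000585).
In metestrus the WT mice were at 7.20, 7.21, 7.25 and 7.36 log2 CPM. The KO mice of that stage were at 6.47, 6.59, 6.66, 6.78 and 6.90. No KO mouse reached the lowest WT mouse, and the log2 fold change was -0.58 ± 0.09 (FDR = 0.00052). This call was lost in 2 of 11 alternatives, with parents as a covariate and within CNIH3 x B6 mice, where 1 WT mouse was left. Over the 11 the log2 fold change was -0.60 to -0.55.
In proestrus the WT mice were at 7.18, 7.19, 7.23, 7.29 and 7.38 log2 CPM, and the KO mice at 6.67, 6.78, 6.88 and 6.92. Again the genotypes did not overlap, with a log2 fold change of -0.44 ± 0.10 (FDR = 0.0357). This call was lost in 7 of 11 alternatives, among them edgeR (FDR = 0.754) and DESeq2 (FDR = 0.323). Over the 11 the log2 fold change was -0.49 to -0.41. The call was also lost in 2 of 9 fits with 1 mouse left out (-0.50 to -0.41).
In estrus, Atf4 was at 7.08 to 7.25 log2 CPM in WT mice (median 7.17, n = 7) and at 6.59 to 6.98 in KO mice (median 6.73, n = 6), again without overlap, with a log2 fold change of -0.48 ± 0.08 (FDR = 0.000949). The call was lost in 2 of 11 alternatives, with edgeR and within CNIH3 x B6 mice, where 1 WT mouse was left. Across the 11 the log2 fold change was -0.56 to -0.43.
The WT males were at 6.99, 7.11, 7.18, 7.24 and 7.58 log2 CPM, and the KO males at 6.55 to 6.94 (median 6.74, n = 7). Here too no KO male reached a WT male, although the log2 fold change of -0.43 ± 0.10 did not pass the threshold (FDR = 0.113).

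Diestrus was the stage in which the genotypes overlapped. WT diestrus mice were at 6.62 to 7.47 log2 CPM (median 7.05, n = 6), and KO diestrus mice at 6.42 to 6.89 (median 6.66, n = 6). The log2 fold change was -0.36 ± 0.09 (FDR = 0.317). The lowest WT mice of the study were both in this stage, mouse 549 at 6.62 and mouse 548 at 6.71, and both were under 14 weeks old and had CNIH3 x B6 parents, as did mouse 569, the highest of the stage at 7.47. Without mouse 548 the log2 fold change was -0.52 (FDR = 0.00023), without mouse 549 it was -0.53 (FDR = 0.000149), and without mouse 569 it was -0.45, which also passed the threshold. In 9 of 12 fits with 1 mouse left out Atf4 stayed uncalled, and the 12 ran from -0.53 to -0.27 (FDR up to 0.793). It also stayed uncalled in all 13 other alternatives, at -0.38 to -0.27. In all, 2 of 11 WT mice with CNIH3 x B6 parents and 0 of 16 with B6 x B6 parents were at or below the highest KO mouse, which was at 6.98. The median of the WT mice was 7.21 with CNIH3 x B6 parents and 7.18 with B6 x B6 parents.

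**Figure D2:**
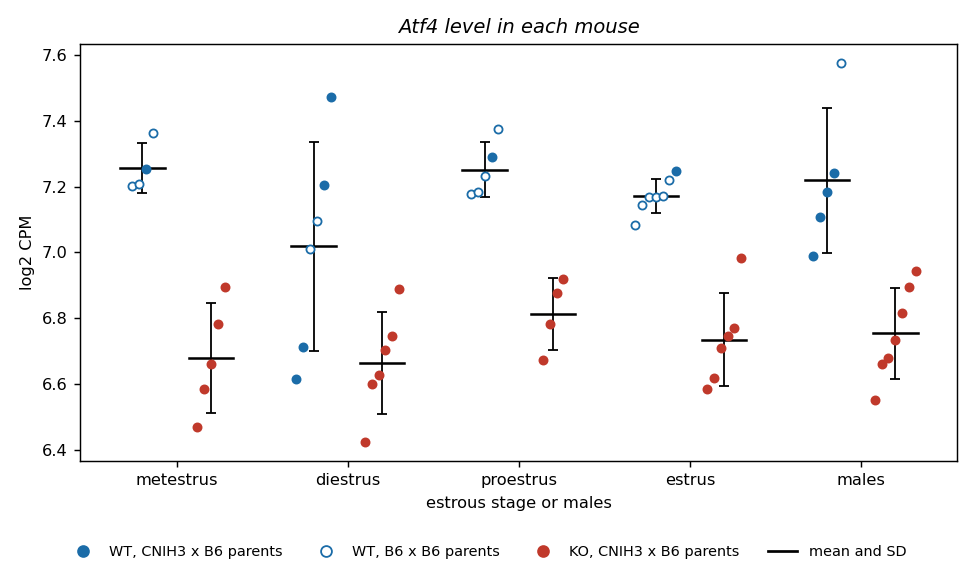
Atf4 level (y axis, log2 CPM) in each mouse (points) of the 10 groups (x axis), WT blue and KO red, open points for B6 x B6 parents, with the mean and SD of each group as black bars. KO mice lie below all WT mice of their group in metestrus, proestrus, estrus and males, and overlap in diestrus, where 2 WT mice are at 6.62 and 6.71.

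Group by group, few members passed the threshold, and with limma over all mice those that did were lower in KO mice. In metestrus 2 of 43 members were called lower (Atf4 and Slc7a3), against 0.0247% of all genes. In diestrus limma called 0 members, with 0% of all genes called lower, and edgeR and DESeq2 also called 0, with 6 members lower and 1 higher at an unadjusted p under 0.05. In proestrus 2 members were called lower (Atf4 and Mthfd2), against 0.26% of all genes. In estrus 3 were called lower (Atf4, Atf5 and Mthfd2), against 0.118%. In males limma called 0 members, against 0.00619% of all genes that were called lower, edgeR called 0 and DESeq2 called 2 (Atf4 and Slc7a3).
At an unadjusted p under 0.05, 11 members were lower in metestrus (4.86% of all genes were), 6 in diestrus (3.91%), 13 in proestrus (7.87%), 7 in estrus (6.09%) and 10 in males (2.86%). The calls within a group depended on the test: edgeR called 0 members in proestrus and 0 in estrus, and DESeq2 called 0 in proestrus and 3 in estrus. Within CNIH3 x B6 mice, where 1 WT mouse each was left in metestrus, proestrus and estrus, 0 members were called in metestrus and in estrus. In proestrus that fit called 1 member, Ppp1r15a, which was higher in KO mice, and 10.2% of all genes in either direction. In proestrus, 10 members were called without the 2 WT proestrus mice whose RNA integrity number was under 8, and all 10 were lower in KO mice, while 5.1% of all genes were called in either direction.

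The members also differed in how fully the mice separated. All KO mice lay below all WT mice of their group for 9 members in metestrus (1.06% of all genes), 0 in diestrus (0.0619%), 4 in proestrus (1%), 2 in estrus (0.285%) and 3 in males (0.111%). No member had all KO mice above all WT mice in any group. Atf4, Slc7a3, Chac1, Mthfd2 and Slc7a1 separated in more than 1 group. For 19 of 43 members (44.2%) the KO mean was below the WT mean in all 5 groups, against 6.8% of all genes.
The test of whether the genotype difference varied among the 5 groups called 0 members with limma, edgeR and DESeq2, and 0% of all genes with limma. At an unadjusted p under 0.05 it gave 3 members (Cebpb, Aldh18a1 and Slc7a5; 5.94% of all genes), so a genotype difference seen in 1 group and not in another was not shown to differ between them.

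**Figure D3:**
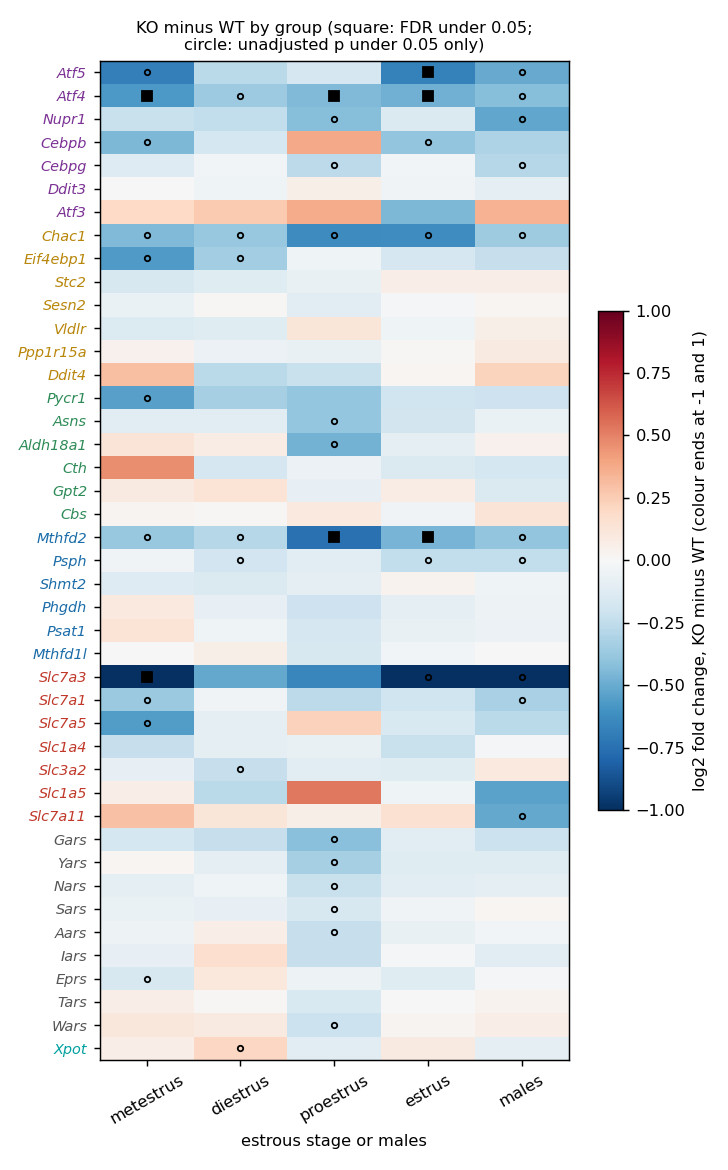
Log2 fold change of KO minus WT (colour, ending at -1 and 1) for each tested member (rows, by class) in metestrus, diestrus, proestrus, estrus and males (columns); squares mark an FDR under 0.05 and circles an unadjusted p under 0.05 alone. Atf4, Chac1, Mthfd2 and Slc7a3 are blue, lower in KO, in all 5 columns, and the circles of the tRNA synthetases stand mostly in proestrus.

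Among the other transcription factors, Atf5, a stress-induced relative of Atf4, ran from 2.47 to 3.48 log2 CPM in WT mice (median 3.06) and from 1.24 to 3.08 in KO mice (median 2.62). It was lower in KO mice by -0.46 ± 0.08 on the log2 scale (FDR = 7.21e-05). In estrus its WT mice were at 2.81 to 3.30 (median 3.09, n = 7) and its KO mice at 2.10 to 2.65 (median 2.37, n = 6). The genotypes did not overlap there, and the log2 fold change was -0.68 ± 0.15 (FDR = 0.0412). This estrus call was lost in 6 of 11 alternatives (log2 fold changes -0.89 to -0.67). It was also lost in 10 of 13 fits with 1 mouse left out (-0.76 to -0.61).
Cebpg, a C/EBP partner of Atf4, was at 4.70 to 5.32 log2 CPM in WT mice (median 5.16) and 4.54 to 5.29 in KO mice (median 4.97). It was lower in KO mice by -0.14 ± 0.04 (FDR = 0.0157). Its call was lost in 6 of 12 alternatives, among them CNIH3 x B6 mice, where the log2 fold change was -0.04.
Nupr1, a stress-induced nuclear protein, was at 3.03 to 4.36 in WT mice (median 3.66) and 2.50 to 4.74 in KO mice (median 3.35). Its log2 fold change was -0.31 ± 0.09 (FDR = 0.0383), with wide overlap. The Nupr1 call was lost in 9 of 12 alternatives, among them edgeR, DESeq2 and voom without weights. It was also lost in 14 of 55 fits with 1 mouse left out. Ddit3 (CHOP), which promotes cell death under lasting stress, had a log2 fold change of -0.02 ± 0.05 (FDR = 0.865). Cebpb was at -0.19 ± 0.08 (FDR = 0.188), and Atf3, another stress-induced factor, was at 0.14 ± 0.16 (FDR = 0.697).

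The stress effectors were split between a pair that was lower in KO mice and 5 near 0. Chac1, which breaks down glutathione, was at 3.42 to 4.37 log2 CPM in WT mice (median 4.02) and at 2.85 to 4.33 in KO mice (median 3.54). Its log2 fold change was -0.49 ± 0.07 (FDR = 8.7e-06), which is 28.6% lower, and within the groups it ran from -0.36 in males to -0.63 in proestrus with no group passing the threshold. Eif4ebp1, a repressor of cap-dependent translation, was at 2.11 to 2.85 in WT mice (median 2.43) and in KO mice had a median of 2.23 and a lowest value of 1.56, with a log2 fold change of -0.27 ± 0.06 (FDR = 0.00437). In metestrus, the group with its smallest p, Eif4ebp1 was at 2.35, 2.39, 2.46 and 2.73 in WT mice and at 1.56, 1.61, 2.02, 2.06 and 2.18 in KO mice. All KO mice were below all WT mice there, at a log2 fold change of -0.57 ± 0.14 that did not pass (FDR = 0.162).
Sesn2, Ddit4, Ppp1r15a, Stc2 and Vldlr were not called, with log2 fold changes from -0.04 (Stc2) to 0.01 (Ddit4). Trib3, a pseudokinase that feeds back on Atf4, had 5 to 91 counts in WT mice (median 32) and 2 to 42 in KO mice (median 19.5). Fitted with no filter on low counts, its log2 fold change was -1.14 (FDR = 0.0139).

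Of the 6 amino acid enzymes, 2 were lower in KO mice. Asns, which makes asparagine from aspartate, was at 7.36 to 8.34 log2 CPM in WT mice (median 7.83) and 7.28 to 8.14 in KO mice (median 7.75). Its log2 fold change was -0.17 ± 0.05 (FDR = 0.0376). Pycr1, the last step of proline synthesis, was at 1.30 to 2.76 in WT mice (median 2.04) and 1.21 to 2.40 in KO mice (median 1.66), with a log2 fold change of -0.33 ± 0.09 (FDR = 0.0301). Both overlapped widely between genotypes. Each call was lost in 7 of 12 alternatives, among them edgeR, DESeq2 and CNIH3 x B6 mice. Within CNIH3 x B6 mice Asns was at -0.05 and Pycr1 at -0.17. With 1 mouse left out, Asns lost its call in 22 of 55 fits and Pycr1 in 7 of 55.
Aldh18a1, an earlier enzyme of proline synthesis, had the smallest p of the class within a group, in proestrus. Its WT mice were at 3.89, 4.14, 4.30, 4.59 and 4.61 log2 CPM and its KO mice at 3.62, 3.82, 3.97 and 4.10. These overlap, and the log2 fold change of -0.47 ± 0.14 did not pass the threshold (FDR = 0.104). Gpt2, Cth and Cbs, which serve alanine synthesis and transsulfuration, had log2 fold changes of -0.02 to 0.05 over all mice.

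Of the 6 serine and one-carbon genes, Mthfd2 and Psph were lower in KO mice, and the 2 other serine synthesis enzymes were not called. Mthfd2, a mitochondrial enzyme of the folate cycle, was at 3.85 to 4.89 log2 CPM in WT mice (median 4.49) and 3.68 to 4.33 in KO mice (median 3.93). Its log2 fold change was -0.45 ± 0.05 (FDR = 4.95e-08), 26.9% lower, and it was the only member besides Atf4 called in more than 1 group. In proestrus its WT mice were at 4.26, 4.49, 4.49, 4.67 and 4.89, and its KO mice at 3.68, 3.76, 3.93 and 4.33. The highest KO mouse was above the lowest WT mouse, and the log2 fold change was -0.74 ± 0.13 (FDR = 0.00722). In estrus it was at 4.17 to 4.55 in WT mice (median 4.49, n = 7) and 3.80 to 4.19 in KO mice (median 3.90, n = 6), with a log2 fold change of -0.47 ± 0.11 (FDR = 0.0497). The proestrus call was lost with edgeR, DESeq2, voom without weights, no filter and parents as a covariate, each of which called no member there. The estrus call was lost with edgeR, which called no member in that stage.
Psph, the last enzyme of serine synthesis, was at 5.31 to 6.14 log2 CPM in WT mice (median 5.62) and 5.24 to 6.07 in KO mice (median 5.45). Its log2 fold change was -0.17 ± 0.04 (FDR = 0.0117), and -0.26 within CNIH3 x B6 mice. The call was lost in 4 of 12 alternatives, among them edgeR and DESeq2, and in 4 of 55 fits with 1 mouse left out. Phgdh and Psat1, the earlier enzymes of serine synthesis, were at -0.07 ± 0.05 (FDR = 0.508) and -0.04 ± 0.04 (FDR = 0.626). Shmt2 and Mthfd1l, which feed mitochondrial one-carbon units, were at -0.07 ± 0.05 and -0.02 ± 0.06.

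The largest fold change of any member was that of an amino acid transporter. Slc7a3, a carrier of cationic amino acids such as arginine and lysine, was at -0.88 to 2.39 log2 CPM in WT mice (median 1.59; 26 to 305 counts) and -0.96 to 1.21 in KO mice (median 0.25; 24 to 111 counts). Its log2 fold change was -1.13 ± 0.15 (FDR = 1.26e-06), or 54.3% lower. In metestrus its WT mice were at 1.48, 1.68, 2.03 and 2.39, and its KO mice at -0.50, -0.45, -0.04, 0.13 and 0.89. The groups did not overlap, and the log2 fold change was -1.84 ± 0.34 (FDR = 0.00568).
Outside metestrus, Slc7a3 was at -0.51 ± 0.36 in diestrus, -0.65 ± 0.38 in proestrus, -1.19 ± 0.29 in estrus (FDR = 0.0722) and -1.45 ± 0.33 in males (FDR = 0.113), none of which passed.
Slc7a1, its widely expressed relative, was at 2.78 to 4.23 log2 CPM in WT mice (median 3.70) and 2.81 to 3.82 in KO mice (median 3.40), with a log2 fold change of -0.24 ± 0.06 (FDR = 0.0197). Its call was lost with edgeR and within CNIH3 x B6 mice (FDR = 0.0587). The large neutral amino acid carrier Slc7a5 was at -0.17 ± 0.07 (FDR = 0.2) and its partner chain Slc3a2 at -0.09 ± 0.04 (FDR = 0.299). Slc7a11, the cystine and glutamate exchanger, was at 0.02 ± 0.10, and Slc1a4 and Slc1a5, carriers of small neutral amino acids, at -0.13 ± 0.06 and -0.05 ± 0.17.

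**Figure D4:**
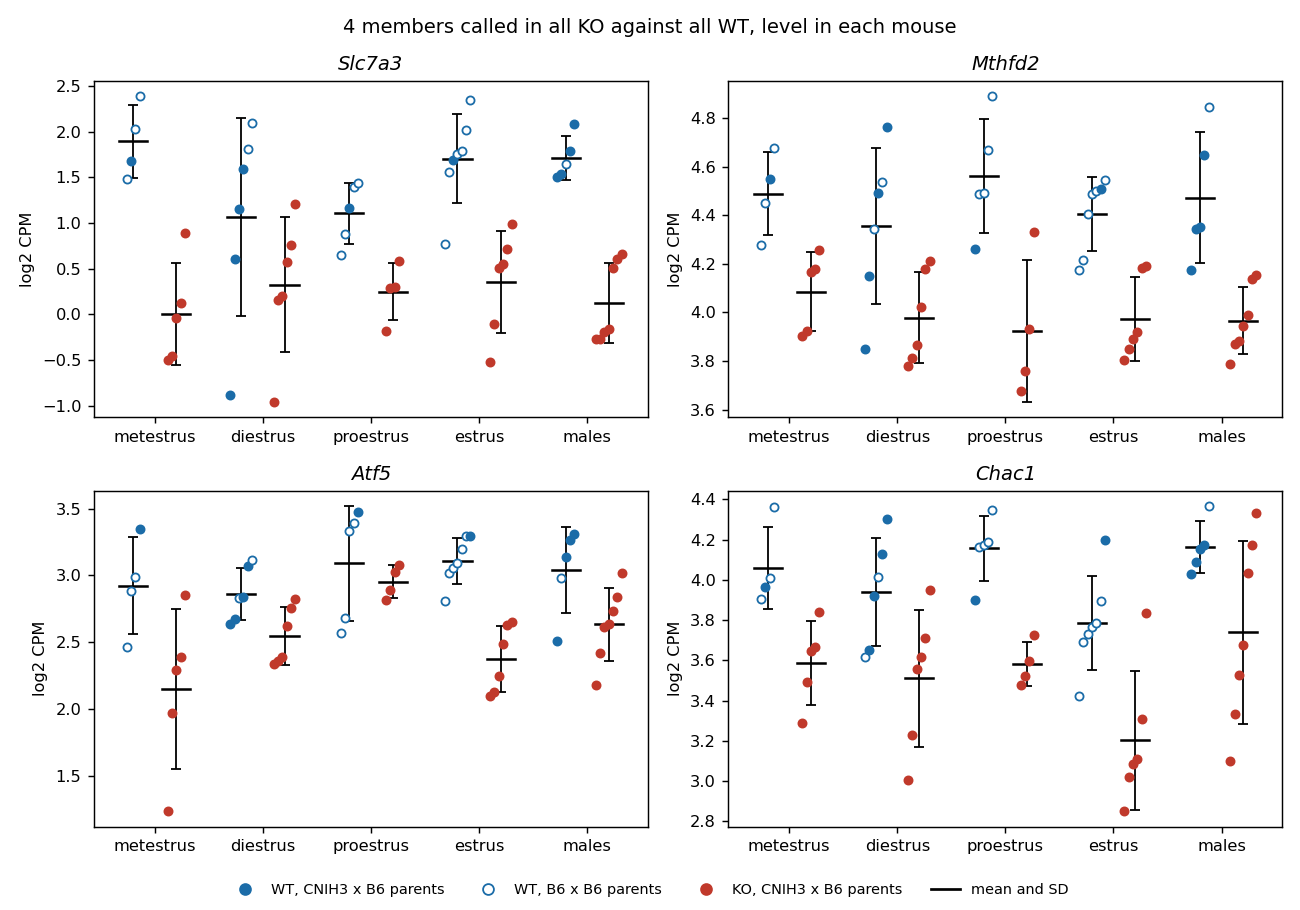
Level (y axes, log2 CPM) of Slc7a3, Mthfd2, Atf5 and Chac1 in each mouse (points) of the 10 groups (x axes), WT blue and KO red, open points for B6 x B6 parents, with the mean and SD of each group as black bars. KO means lie below WT means in every group, and the genotypes do not overlap for Slc7a3 in metestrus, proestrus and males, for Mthfd2 in metestrus and males, for Atf5 in estrus and for Chac1 in metestrus and proestrus.

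Of the 9 tRNA synthetases, which load amino acids onto their tRNAs, 3 were lower in KO mice. Gars, for glycine, was at 6.15 to 7.08 log2 CPM in WT mice (median 6.45) and 5.97 to 6.94 in KO mice (median 6.24), with a log2 fold change of -0.23 ± 0.05 (FDR = 0.00811). Nars, for asparagine, was at -0.11 ± 0.03 (FDR = 0.0346) and Yars, for tyrosine, at -0.13 ± 0.04 (FDR = 0.0301). Those differences correspond to 7.41% and 8.65% lower transcript, and within CNIH3 x B6 mice they were -0.03 (FDR = 0.719) and -0.01 (FDR = 0.898), with the calls lost there and with edgeR and DESeq2. The other 6 synthetases ran from -0.07 (Sars) to 0.02 (Wars), and Xpot, which carries tRNAs out of the nucleus, was at 0.03 ± 0.04.
In proestrus, 6 of the 9 synthetases were lower at an unadjusted p under 0.05 and none passed the threshold. The smallest p was that of Yars, with WT mice at 6.63, 7.01, 7.14, 7.31 and 7.34 log2 CPM and KO mice at 6.64, 6.80, 6.82 and 6.90. The lowest WT mouse was below all KO mice, and the log2 fold change was -0.33 ± 0.09 (FDR = 0.0634).

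Per length of exon, the members covered a wide range of levels, which bears on how well each could be measured. Among WT mice the median level of Asns was 83.3 CPM per kb of annotated exon, that of Nars 73.3 and that of Atf4 61.7. Chac1 was at 9.88, Mthfd2 at 6.43, Atf5 at 4.17 and Slc7a3 at 0.796 CPM per kb, and the lowest tested member was Slc1a5 at 0.188. The called members thus included both abundant and sparse transcripts.

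Genes that act beside the members in the same pathway were followed in lists that hold no member. Of 13 kinases, initiation factors and regulators that act on eIF2, including the kinases Eif2ak1 to Eif2ak4, 0 were called in all KO against all WT with limma, edgeR or DESeq2, and with limma 1 was higher at an unadjusted p under 0.05. Their median log2 fold change was 0.03. Among 11 other cytosolic tRNA synthetases 2 were called (18.2%, against 3.4% of all genes in either direction), both also with edgeR and DESeq2. Cars was lower (-0.22 ± 0.04, FDR = 0.000124) and Hars was higher (0.20 ± 0.04, FDR = 0.000671), and the list's median was -0.04.

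The second question was whether the members differ among the stages and males within a genotype. In WT mice 5 of 43 members (11.6%) were called, against 6.59% of all genes: Cebpb, Vldlr, Slc7a1, Slc7a5 and Slc1a4. All 5 had their lowest mean in diestrus. In KO mice 26 members (60.5%) were called, against 42.5% of all genes, and they included 8 of 9 tRNA synthetases, 4 of 6 amino acid enzymes and 4 of 7 transporters. Of these 26, 12 were highest and 7 lowest in diestrus, and 12 were lowest in proestrus. Atf4 was called in neither genotype.
These counts fell without the young diestrus mice and with other tests, as did the share of all genes called. Leaving out the diestrus mice under 14 weeks left 3 WT and 2 KO mice in that stage. That fit called 0 members among the WT groups (0.0619% of all genes). Among the KO groups it called 3 (Cebpg, Eif4ebp1 and Slc3a2), against 2.71% of all genes. EdgeR called 0 in WT (0.0742% of all genes) and 3 in KO mice (3.64%), and DESeq2 0 (0.557%) and 7 (9.02%). With age as a covariate, 0 were called in WT (0.835% of all genes) and 19 in KO mice (28.9%).

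Slc3a2, the shared heavy chain of several transporters, had the smallest p among the KO groups (FDR = 3.36e-07). Its level was lowest in KO diestrus at 5.47 to 5.93 log2 CPM (median 5.63, n = 6) and highest in KO males at 6.09 to 6.46 (median 6.40, n = 7), which do not overlap. KO diestrus minus KO males was -0.70 ± 0.08 (SE) on the log2 scale. In diestrus the 4 KO mice under 14 weeks were at 5.47 to 5.68 and the 2 older ones at 5.88 and 5.93. The 3 young WT diestrus mice were at 5.52 to 5.77, and the 3 older ones at 6.06 to 6.12, so in both genotypes the age classes did not overlap.
Vldlr, a lipoprotein and reelin receptor induced by stress, was called in both genotypes (FDR = 0.0163 in WT and 2.6e-06 in KO mice). In KO diestrus the young mice were at 4.54 to 4.81 and the older ones at 5.35 and 5.61, and in WT diestrus they were at 4.58 to 4.62 and 5.26 to 5.74. Each young mouse was thus below each older mouse of its genotype in this stage.
The opposite order held for the synthetase Eprs (FDR = 3.75e-05 among the KO groups), with the young diestrus KO mice at 6.88 to 7.09 and the older at 6.48 and 6.64, and the young WT mice at 6.87 to 7.02 and the older at 6.60 to 6.63. Asns (FDR = 0.000316 among the KO groups) was highest in diestrus and lowest in proestrus, at 7.42 to 8.14 log2 CPM in KO diestrus (median 7.96) and at 7.29, 7.37, 7.40 and 7.65 in KO proestrus. Its young KO diestrus mice were at 7.95 to 8.14, and the older ones at 7.42 and 7.81.

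**Figure D5:**
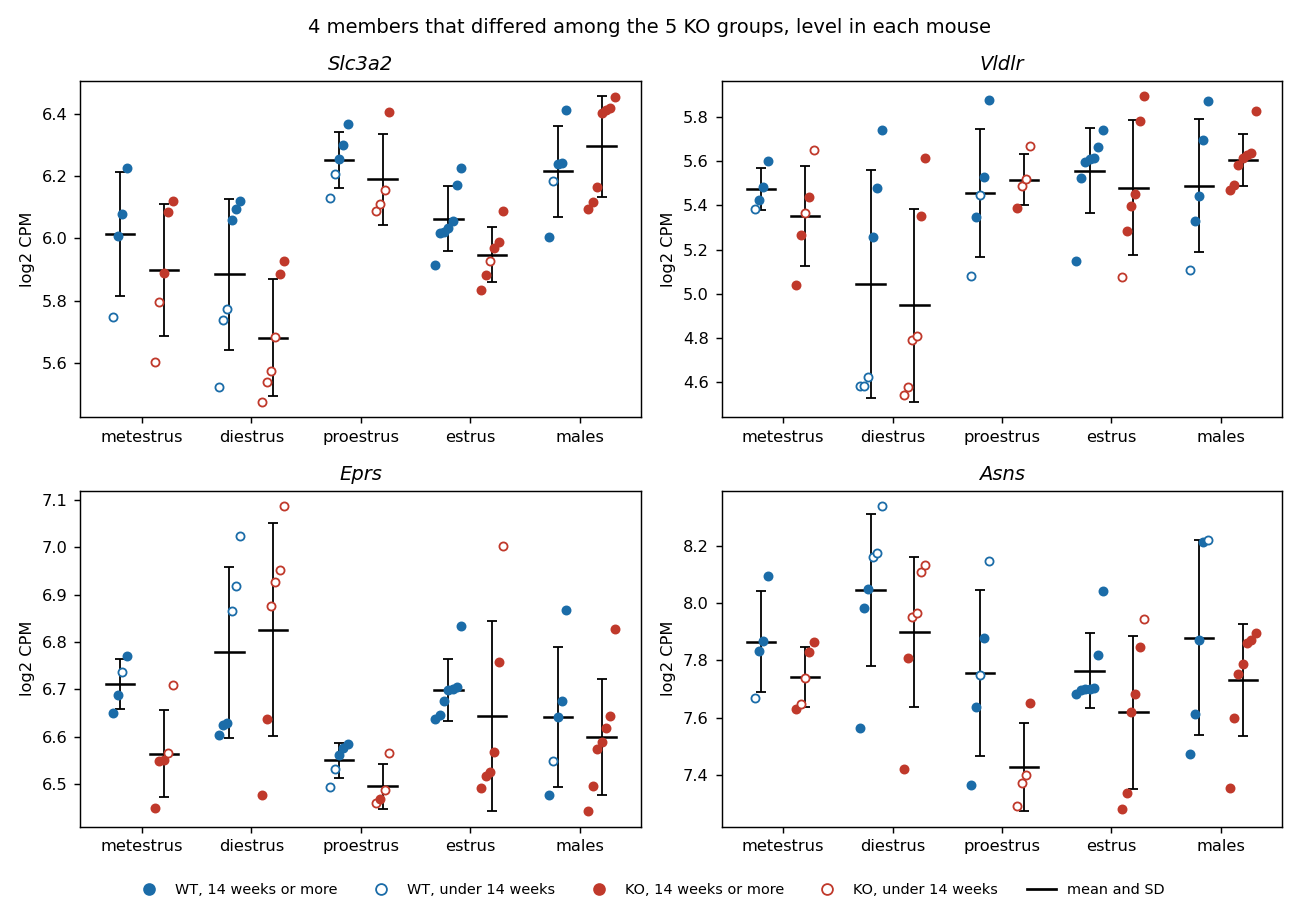
Level (y axes, log2 CPM) of Slc3a2, Vldlr, Eprs and Asns in each mouse (points) of the 10 groups (x axes), WT blue and KO red, open points for mice under 14 weeks, with the mean and SD of each group as black bars. In diestrus the young mice of both genotypes lie below the older ones for Slc3a2 and Vldlr and above them for Eprs and Asns.

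Cebpg (FDR = 0.000984) was highest in KO estrus, with a mean of 5.16 ± 0.12 (SD, n = 6), and lowest in KO males at 4.78 ± 0.12 (n = 7). Phgdh (FDR = 0.0242) was highest in KO diestrus at 7.18 ± 0.22 (n = 6) and lowest in KO estrus at 6.83 ± 0.30 (n = 6). Among the WT groups, Cebpb (FDR = 0.0138) was at 2.59 ± 0.20 in estrus (n = 7) and 1.99 ± 0.36 in diestrus (n = 6), and Slc1a4 (FDR = 0.0206) was at 4.35 ± 0.14 in estrus and 3.82 ± 0.43 in diestrus.

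Markers of other cells were followed beside these results, since in bulk tissue fewer cells of a type and less RNA per cell cannot be told apart. In all KO against all WT, limma, edgeR and DESeq2 called 0 of 8 astrocyte, 0 of 10 mature oligodendrocyte, 0 of 8 endothelial, 0 of 8 choroid plexus and 0 of 7 microglia markers, of which limma gave 2 endothelial markers, both lower, at an unadjusted p under 0.05. Of 5 dentate granule cell markers limma called C1ql2 (-0.59 ± 0.10) and Stxbp6 (-0.20 ± 0.05) lower, and of 5 pyramidal cell markers Bok (-0.38 ± 0.09), against 1.9% of all genes. EdgeR and DESeq2 called C1ql2 and Bok but not Stxbp6. The part of these markers in the members' difference was not tested. The summed choroid plexus markers ran from 22.6 to 1434 CPM in WT mice and from 32.4 to 2232 in KO mice. With that level as a covariate, chosen after the data were seen, 13 of the 15 members were called, and Atf4 was at -0.45 on the log2 scale. In metestrus 8 of 8 endothelial markers were below 0 (median log2 fold change -0.53), with 2 lower at an unadjusted p under 0.05 and 0 called. In proestrus 3 of 8 endothelial markers were below 0 (median 0.25), and the part of these markers in the members' difference was not tested. Blood markers moved in opposite directions in metestrus (5 of 5 higher in KO mice at an unadjusted p under 0.05) and estrus (4 of 5 lower) with 0 called, and their part in the members' difference was not tested. Among the KO groups, where 42.5% of all genes were called, 8 of 10 oligodendrocyte markers and 9 of 10 immediate early genes were called beside the 26 members. So were 5 of 7 microglia, 4 of 5 blood, 4 of 8 astrocyte and 3 of 8 endothelial markers. The same test called 3 of 5 pyramidal cell, 2 of 5 dentate granule cell, 2 of 3 tested pituitary and 0 of 8 choroid plexus markers. The part of these lists in the stage differences of the members was not tested.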

How the data were processed

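Dorsal hippocampal RNA was purified from lysate supernatant and made into polyadenylated cDNA libraries that do not mark strand. Per the study's methods and the submitters' notes, the authors aligned reads to GRCm38 with STAR 2.7.9a and counted uniquely aligned, unambiguous reads per Ensembl gene with featureCounts 2.0.3. They deposited raw gene counts, the source of every value here. The log2 CPM that the authors deposited for the genes they tested served as a check, and differed from those computed here by at most 4.97e-14. The deposited gene CPM and transcript tables were not used. Of the count columns, 1 matches no mouse in the labels and was left out. Of 55774 lines, 287 repeated a gene and were dropped.

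A gene was tested if 10 or more mice exceeded 1 CPM, and 5 ribosomal RNA genes were left out. Counts were scaled by TMM (edgeR 4.0.16) and fitted in limma 3.58.1 under R 4.3.3 with voomWithQualityWeights, 1 mean for each of 10 groups and empirical Bayes. The 5 genotype contrasts and their average were tested, with moderated F tests for the interaction and for differences among the groups of a genotype. FDR values follow Benjamini and Hochberg over the 16168 genes, and under 0.05 was called. Comparisons share mice, so they are not independent. Replicates are separate mice.

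Members and lists were chosen with earlier results of these data known. Named with full values were members called in a genotype contrast, the member of each class with the smallest p in a genotype contrast within a group, and the called member of each class with the smallest p among the groups of a genotype. Positions are from GENCODE M21. Steps were tested on simulated data. Alternatives were edgeR's quasi-likelihood test, DESeq2 1.42.0, no quality weights, RLE factors, no filter, age, restricted sets of mice, and each mouse left out in turn. Parents and choroid plexus markers as covariates were added after the data were seen. Parents, ages and RNA integrity numbers are from the study's sample table. The result of 1 list of pathway genes outside the members is not reported here.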

Additional observations from a re-analysis of the deposited data

Results flagged for a closer look

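Among 22 members given with values, 220 groups of values were tested for a mouse far from the others of its group, and 10 were found, where chance gives about 1 in 20. In WT estrus, mouse 5_2 was high for Asns (8.04 log2 CPM, nearest mouse 7.82) and Pycr1 (2.64, nearest 2.05) and low for Vldlr (5.15, nearest 5.52). Eprs was at 6.83 in WT estrus mouse 1_1 (nearest 6.70), and Gars was at 6.90 in WT estrus mouse 2_1 (nearest 6.45). In WT proestrus, mouse 8_2 was high for Cebpb (2.87, nearest 1.96) and low for Cebpg (4.70, nearest 5.16). Among KO males, Gars was at 6.94 in mouse 2016 (nearest 6.44), Psph at 6.07 in mouse 2590 (nearest 5.59) and Slc7a1 at 3.69 in mouse 2589 (nearest 3.45).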

How the results depend on the processing

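No member given with full values changed direction under the alternatives run for it. Of 105 counts of called members under other settings 66 were within 1.5 times the reported count, as were 242 of 275 with 1 mouse left out. Single members kept their side of the threshold in 193 of 281 and 810 of 924 fits. The cause of the changes was not tested. For metestrus (2 members reported), 0 were called within CNIH3 x B6 mice, 0 with parents as a covariate, 1 with only the 2 groups compared, and 1 to 3 with 1 mouse left out. For diestrus (0 reported), 1 was called without the mice aged 14 weeks or more, and 0 to 8 with 1 mouse left out: 8 without WT mouse 548, 8 without 549 and 5 without 569. For proestrus (2 reported), edgeR, DESeq2, voom without weights, no filter and parents as a covariate each gave 0, age as a covariate 1, CNIH3 x B6 mice 1 (Ppp1r15a, at -0.07 and not called over all mice, higher there, with 10.2% of all genes called) and RNA integrity numbers of at least 8 gave 10 (5.1% of all genes). Leaving out 1 mouse gave 0 (without KO mouse 12_4 or 12_5) to 8 (without WT mouse 5_4), and 4 without WT mouse 8_2. For estrus (3 reported), edgeR and CNIH3 x B6 mice gave 0, and voom without weights, no filter, choroid plexus markers as a covariate and only the 2 groups compared gave 1. Leaving out 1 mouse gave 1 (without KO mouse 12_1, 12_2, 12_3 or 9_1 or WT mouse 2_1, 5_3 or 8_3) to 4. For males (0 reported), DESeq2 gave 2, CNIH3 x B6 mice 1, and 1 mouse left out 0 to 3, with 3 without WT mouse 1949 and 1 without WT mouse 19_1, 2015 or 2052 or KO mouse 1950. For all KO against all WT (15 reported), edgeR gave 7, DESeq2 8, voom without weights 7, no filter 9, CNIH3 x B6 mice 9, parents as a covariate 8, and 1 mouse left out 9 (without KO mouse 12_4) to 15. Among the WT groups (5 reported), edgeR, DESeq2, voom without weights, age and leaving out diestrus mice under 14 weeks gave 0, parents as a covariate 1, CNIH3 x B6 mice 22 (41.8% of all genes called) and leaving out diestrus mice of 14 weeks or more 16 (29% of all genes). Leaving out 1 mouse gave 0 (without WT diestrus mouse 548, 549 or 569) to 15, with 10 or more without WT male 19_1, 1949, 2015 or 2052 or any of the other 3 WT diestrus mice. Among the KO groups (26 reported), edgeR gave 3 (3.64% of all genes called), DESeq2 7 (9.02%), voom without weights 4 (5.63%) and no filter 13 (7.49%). Leaving out diestrus mice under 14 weeks gave 3 (2.71%), age as a covariate 19 (28.9%), and leaving out 1 mouse 20 to 28. The interaction gave 0 throughout. A lone WT mouse in a group was assumed to vary like the others. No paired analysis was possible because the groups compared share no mouse number and the labels tie no mice of different groups to a litter. Slc7a3 had 24 to 305 counts, the fewest of the called members, and what depth adds to its spread was not tested.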
